A study of Drosophila melanogaster with 12 samples.

Results

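The genes examined here encode the subunits of the proteasome, taken as every gene whose symbol in the array's probe annotation begins with Prosalpha, Prosbeta, Rpn or Rpt followed by a number. The rule found 41 genes among 11979 named genes on the array. Of these, 26 carry the plain symbol of a subunit and 15 carry a further letter, T or R, after the number and are paralogs, which were kept apart. The RNA came from small pools of neuroblasts and their daughters, the ganglion mother cells (GMCs), taken from the ventral nerve cord of stage 11 Drosophila melanogaster embryos. One group was the prospero mutant, homozygous for the pros17 allele (6 arrays). The other, called wildtype by the submitters, carried pros17 over the balancer TM3-KrGFP (6 arrays), so both groups carried at least 1 copy of the mutant allele and the comparison is between homozygous and heterozygous animals. Each cell sample was hybridised against a common reference made from whole w1118 embryos of stages 10 to 12, with the cells in Cy3 on replicates 1 to 3 and in Cy5 on replicates 4 to 6 of each group, called here the Cy3 arrays and the Cy5 arrays. Between 50 and 100 cells were used per sample and their cDNA was amplified by PCR. For all samples the labels give a temperature of 25 °C and a reference of 30 embryos. Nothing in the labels ties the samples to separate embryos, and the p-values therefore cover the spread of these arrays, which may be partly technical.

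The proteasome is the protease that degrades proteins tagged with ubiquitin. Its core particle is a barrel of stacked rings, in which the outer alpha rings gate the entrance and the inner beta rings hold the proteolytic sites. The regulatory particle caps the barrel: its base contains the ATPases that unfold the substrate and its lid removes the ubiquitin chain. Prospero, the transcription factor mutated here, is passed to the GMC at the division of a neuroblast, where it restrains self-renewal and the cell cycle, and timed proteolysis by the proteasome is a general requirement of dividing cells.

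Each value is the log2 of the cell signal relative to the whole-embryo signal, and differences are prospero mutant minus wildtype on that scale. The titles set each sample versus the common reference and no label states the sign, so that the cells are on top of the ratio is likely, not certain. Of 8 neuroblast and GMC markers, 6 passed above 0 and 1 below in the mutant, against 4 above and 3 below in wildtype. Of 4 neuronal markers, 2 passed above 0 and 1 below in the mutant, against 3 above and 0 below in wildtype, and of 2 gut markers 2 passed below 0 in the mutant and 1 in wildtype. Hemocyte and fat body markers passed above 0 for 4 of 6 and below for 1 in the mutant, against 3 and 2 in wildtype. Germline markers passed above for 1 of 2 in the mutant, against 1 above and 1 below in wildtype. Glial markers passed above for 0 of 5 and below for 2 in the mutant, against 3 and 1 in wildtype. Mesodermal markers passed below for 2 of 3 in the mutant and above for 1 in wildtype, and pnr (epidermis) below in both. Non-neural markers thus lay on both sides of 0. With the sign turned, every count above the reference given here would be a count below it, with the same shares of all rows turned likewise, and each group difference would change sign. The log base was read from the values and is given by no label. A ratio describes a gene relative to whole embryos and not how much of its RNA the cells held, so ratios of different genes are not levels. A lower ratio in such a pool may reflect fewer cells of a type or less RNA per cell, which cannot be told apart. Arrays gave between 8421 and 10030 ratios each, and correlated at 0.750 to 0.855 within the mutant group, 0.511 to 0.865 within wildtype and 0.540 to 0.836 between the groups (over rows). The targeted gene pros ran from -3.95 to -2.13 in the mutant and from 0.88 to 3.29 in wildtype. Between the groups, 4 of the 8 neuroblast and GMC markers were higher and 1 (pros) was lower in the mutant past the threshold. The median of that list per array ran from 0.54 to 1.89 in the mutant. In wildtype it was 1.60, 1.22 and 1.20 on the Cy3 arrays and -0.09, -0.51 and -0.72 on the Cy5 arrays, and the median of the neuronal list was 0.29, -0.07 and 1.38 on the wildtype Cy3 arrays and 3.04, 2.16 and 2.10 on the wildtype Cy5 arrays. The wildtype Cy5 arrays (replicates 4 to 6) thus stand apart from the other wildtype arrays, and the main counts are also given without them, an alternative chosen after seeing the data. Among the other marker lists, 1 of 4 neuronal, 1 of 5 glial and 1 of 3 mesodermal genes were lower and 1 of 6 hemocyte and fat body genes was higher, and the sole tested epidermal and tracheal gene, pnr, was higher. Of 2 gut and 2 germline genes 0 passed. List medians ran from -0.63 to 0.88 in the mutant for neurons, from -0.91 to 0.58 in the mutant and from 0.01 to 1.13 in wildtype for glia, from -2.45 to -0.43 in the mutant and from -0.38 to 0.74 in wildtype for mesoderm, and from -0.21 to 1.06 in the mutant and from -0.22 to 1.25 in wildtype for hemocytes and fat body. The part of these shifts in the values below was not tested.

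Proteasome subunit genes did not pass the test between prospero mutant and wildtype cells. All 26 subunit genes had enough ratios to be tested (at least 4 of 6 arrays in each group), 24 of them with a ratio on all 12 arrays, against 77.9% of all 8165 tested rows. Of the 26, 0 passed an adjusted p of 0.05 in limma in either direction, where 4.95% of all rows did. At an unadjusted p under 0.05 there were 3, namely Rpt5, Prosalpha1 and Rpt3, where 25.9% of all rows lay under that mark. The median difference of the 26 genes was -0.03, against -0.13 over all rows. Differences were below 0 for 15 genes, against 59.3% of all rows, and above 0 for 11. Within 0.25 of 0 lay 21 of them, against 32.6% of all rows. This balance held at the zero point of the deposited values, whose centring is not given in the sources used here. After each array was centred on its own median, differences were below 0 for 5 genes (44.8% of all rows) and above 0 for 21, with a median of 0.18, and 1 gene, Rpt3, passed, where 7.89% of all rows did. After quantile normalization they were also below 0 for 5 genes (43.7% of all rows), with a median of 0.16, and 1 gene, Rpt3, passed, where 6.01% of all rows did. Without the wildtype Cy5 arrays 25 genes could be tested, 0 passed in limma (0.0371% of all rows, 3 rows, did) with 1 at an unadjusted p under 0.05, and differences were below 0 for 18 (59.4% of all rows). With dye in that fit, its group difference is the one between the mutant and wildtype Cy3 arrays. The mutant Cy5 arrays add only to the estimate of spread. The 95% interval of the difference lay within 1 of 0, that is within a 2-fold change either way, for 24 genes, against 39.2% of all rows. The exceptions were Rpt5 and Rpn1, in the fit to the deposited values.

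**Figure D1:**
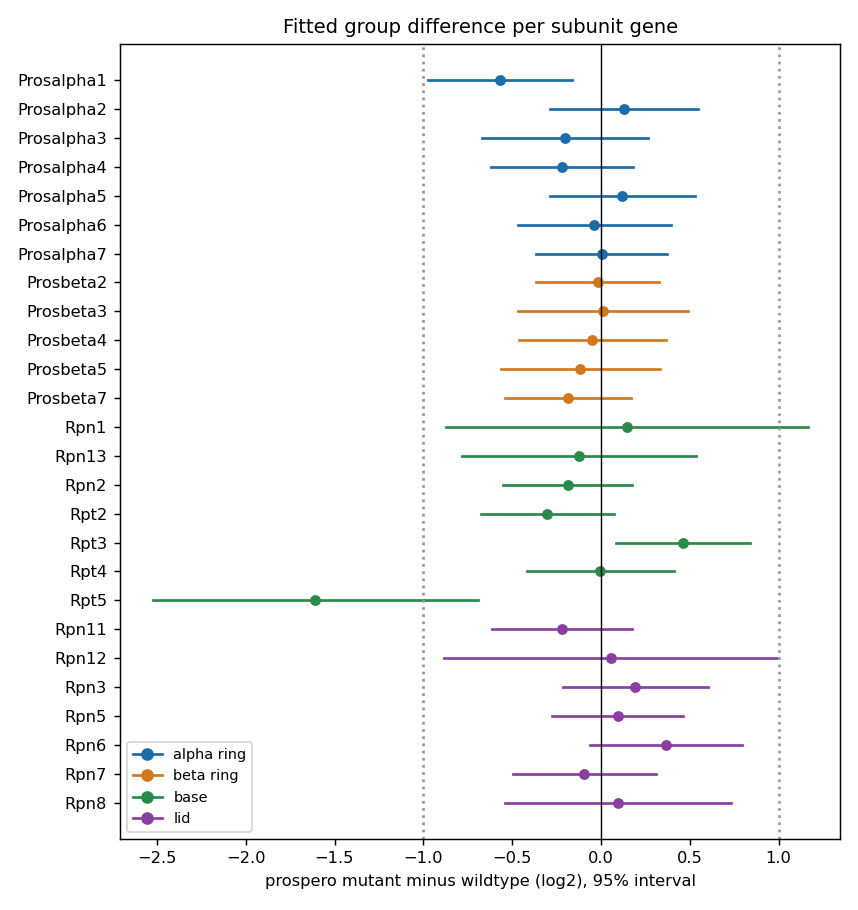
Fitted difference of each of the 26 subunit genes, prospero mutant minus wildtype on the log2 scale (x axis), with bars for the 95% interval of limma and colours for the subcomplex; dotted lines mark a 2-fold change. The intervals of 24 genes lie between the dotted lines, that of Rpt5 runs from -2.52 to -0.69 and that of Rpn1 from -0.87 to 1.16.

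Against the whole-embryo reference, most subunit genes stood above 0 in both groups. In the prospero mutant 21 of 26 passed with ratios above 0 and 0 below, where 35.3% of all rows passed above and 35.6% below. In wildtype 22 passed above and 0 below, where 37.8% of all rows passed above and 28.5% below. In both groups 20 genes passed above 0, where the share of all rows was not counted and can be at most 35.3%. The median fitted ratio of the 26 genes was 0.79 in the mutant and 0.71 in wildtype, against -0.02 and 0.17 over all rows. On single arrays the median of the subunit genes ran from 0.57 to 0.86 in the mutant (0.76 ± 0.11, SD, n = 6) and from 0.55 to 0.98 in wildtype (0.80 ± 0.14, SD, n = 6), so the groups overlapped. The distance of that median from the median of all rows on the same array was 0.55 to 0.94 in the mutant and 0.51 to 0.88 in wildtype. After each array was centred on its own median, 21 genes passed above 0 in the mutant (33.9% of all rows did) and 18 in wildtype (30.1% of all rows), and the median fitted ratio was 0.75 in the mutant and 0.46 in wildtype. Without the wildtype Cy5 arrays, 20 genes passed above 0 in the mutant (37.2% of all rows) and 15 in wildtype (26.8% of all rows).

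**Figure D2:**
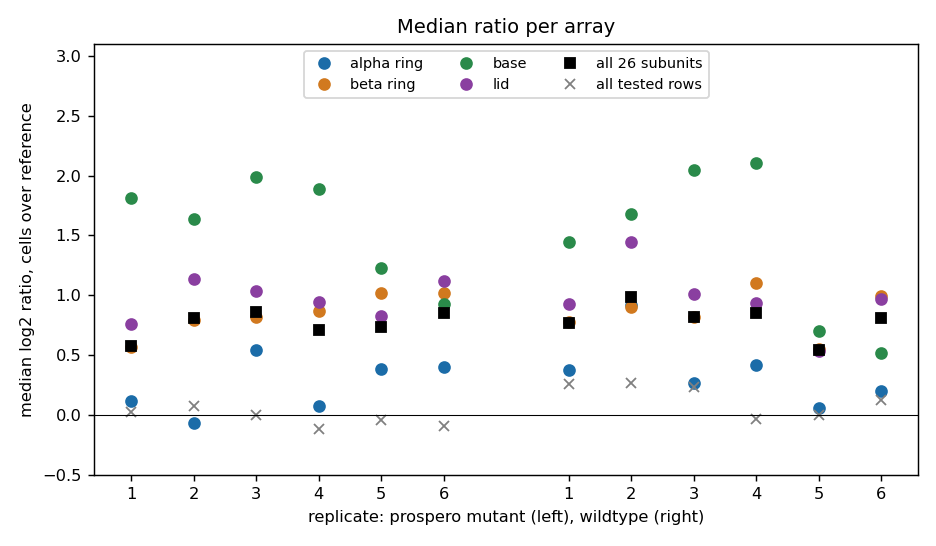
Median log2 ratio of cells over reference (y axis) on each array, prospero mutant replicates on the left and wildtype replicates on the right, for the 26 subunit genes (black squares), each subcomplex (coloured points) and all tested rows (grey crosses). The black squares lie between 0.57 and 0.86 in the mutant and between 0.55 and 0.98 in wildtype, above the grey crosses on every array.

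The 7 alpha ring genes lay closest to the reference. Their median fitted ratio was 0.22 in the mutant and 0.43 in wildtype, with 3 of 7 past the threshold above 0 in the mutant and 4 of 7 in wildtype, to be read against 35.3% and 37.8% of all rows. Prosalpha5 was the highest of the ring at 1.38 ± 0.25 in the mutant and 1.26 ± 0.26 in wildtype (SD, n = 6 each), and passed in both. Prosalpha4 and Prosalpha7 lay below 0, at -0.27 and -0.23 in the mutant and at -0.05 and -0.24 in wildtype, and did not pass. Differences between the groups ran from -0.57 for Prosalpha1 to 0.13 for Prosalpha2.

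Prosalpha1, an alpha ring subunit, was the alpha gene with the lowest difference. Its ratios ran from -0.07 to 0.54 with a median of 0.05 in the mutant, against 0.47 to 1.05 with a median of 0.67 in wildtype. Mutant replicate 3, at 0.54, was the only mutant array inside the wildtype range. The difference was -0.57 (SE 0.19, limma unadjusted p = 0.0104, adjusted p = 0.0872), which did not pass over all rows. It was -0.49 on the Cy3 arrays and -0.65 on the Cy5 arrays (limma adjusted p = 0.447 and 0.148). The gene Prosalpha1R, which the gene table places next but 1 to Prosalpha1 on chromosome arm 2R, ran from 0.08 to 1.03 in the mutant and from 0.46 to 1.55 in wildtype, and its difference was -0.31 (limma adjusted p = 0.322). Probe sequences were not used here, so signal shared between the neighbouring copies was not tested. Prosalpha2 had the highest difference of the ring. It ran from 0.08 to 0.70 with a median of 0.48 in the mutant, against -0.16 to 0.78 with a median of 0.28 in wildtype, and its difference was 0.13 (SE 0.19, limma adjusted p = 0.708). The mutant values lay inside the wildtype range. Prosalpha3 and Prosalpha6 had differences of -0.20 and -0.04, with limma adjusted p of 0.594 and 0.928.

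The beta ring genes had the narrowest range of group differences among the 4 subcomplexes, which were not tested against each other. Differences of the 5 genes ran from -0.18 to 0.01, with a median of -0.05. All 5 passed above the reference in both groups, where 35.3% of all rows did in the mutant and 37.8% in wildtype. Prosbeta2, which carries the trypsin-like site, ran from 0.71 to 1.09 with a median of 1.003 in the mutant, against 0.67 to 1.21 with a median of 0.95 in wildtype. The mutant range lay inside that of wildtype, and the difference was -0.02 (SE 0.16, 95% interval -0.36 to 0.33, limma adjusted p = 0.954, exact two-sided permutation p over the arrays 0.855). Prosbeta5, which carries the chymotrypsin-like site, ran from 0.58 to 1.41 with a median of 1.02 in the mutant, against 0.53 to 1.63 with a median of 1.12 in wildtype. Its difference was -0.12 (SE 0.20, 95% interval -0.56 to 0.33, limma adjusted p = 0.757, exact two-sided permutation p 0.545). For both of these catalytic subunits the interval leaves out a change of 2-fold in either direction.

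The other beta genes tested here, Prosbeta3, Prosbeta4 and Prosbeta7, are structural. The catalytic subunit Prosbeta1 was not analysed here, and nor was Prosbeta6. Prosbeta3 had the highest difference, 0.01 (SE 0.22, limma adjusted p = 0.981), with ratios from 0.57 to 1.73 and a median of 1.05 in the mutant, against 0.46 to 1.69 and a median of 1.16 in wildtype. Prosbeta4 stood at 0.36 ± 0.17 in the mutant and 0.41 ± 0.31 in wildtype (SD, n = 6 each). Prosbeta7 had the lowest difference, -0.18 (SE 0.16, limma adjusted p = 0.515), with ratios from 0.13 to 0.79 and a median of 0.51 in the mutant, against 0.50 to 0.86 and a median of 0.70 in wildtype. It is the sole subunit gene with 2 probes, and these disagreed on the ratio over the reference. One probe stood at 1.25 ± 0.58 in the mutant and 1.48 ± 0.34 in wildtype, the other at -0.23 ± 0.15 and -0.10 ± 0.14 (SD, n = 6 in each group), and both had lower means in the mutant. A position of the other genes relative to the reference therefore rests on 1 probe each. The pass of Prosbeta7 above the reference, also in the counts given above, is that of the average of its probes. Its lower probe ran from -0.40 to -0.05 in the mutant and from -0.31 to 0.07 in wildtype.

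**Figure D3:**
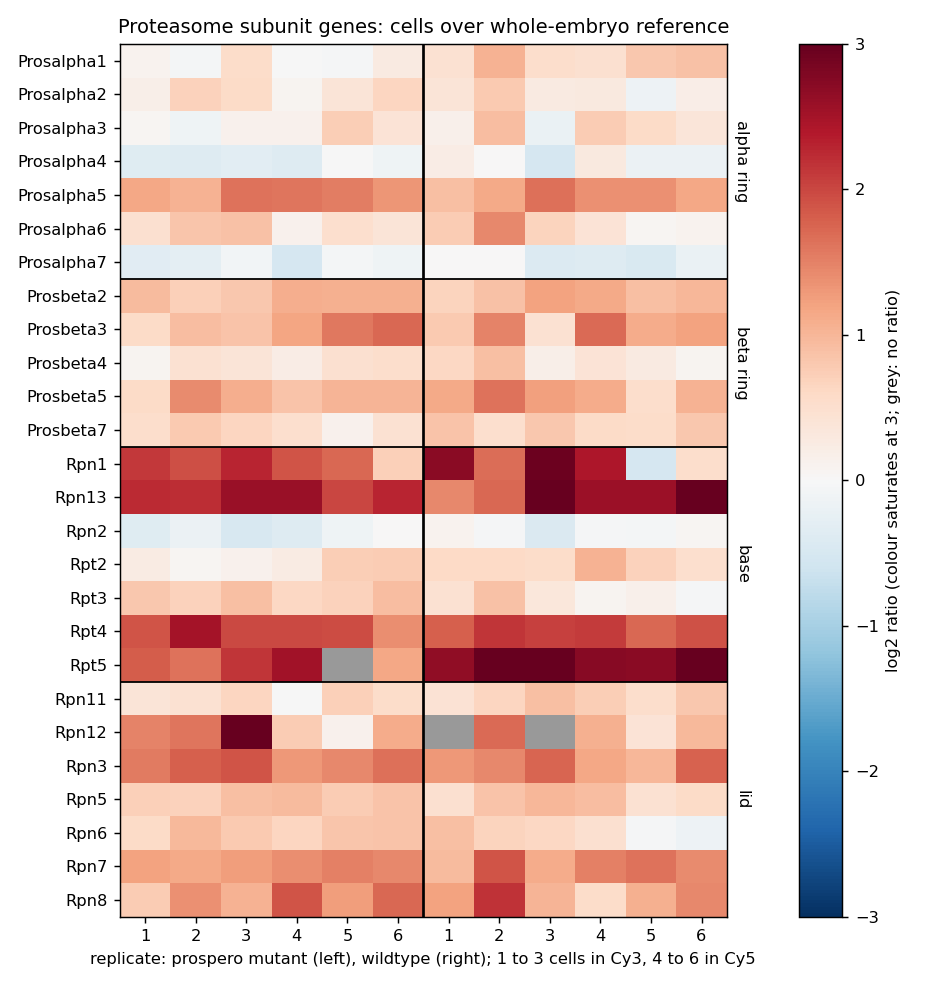
Log2 ratio of cells over reference of each subunit gene (rows, grouped by subcomplex) on each array (columns, prospero mutant on the left, wildtype on the right); red is above and blue below the reference, colours saturate at 3 and grey cells have no ratio. The rows of Prosalpha4, Prosalpha7 and Rpn2 are pale or blue, and those of Rpn13 and Rpt4 are red in both groups. The row of Rpt5 is darker red in wildtype than in the mutant, where it has a grey cell.

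The base of the regulatory particle held the genes with the highest ratios and the widest span. The median fitted ratio of its 7 genes was 1.78 in the mutant and 1.63 in wildtype. In each group 6 of 7 passed above 0, against 35.3% of all rows in the mutant and 37.8% in wildtype. Rpn13, a ubiquitin receptor, stood at 2.32 ± 0.23 in the mutant and 2.44 ± 0.73 in wildtype (SD, n = 6 each), with 1.45 as its lowest ratio on any array. Rpt4, one of the ATPases, stood at 1.95 ± 0.35 in the mutant and 1.95 ± 0.17 in wildtype (SD, n = 6 each). Rpn2, the scaffold on which Rpn13 docks, lay at -0.25 ± 0.19 in the mutant and -0.06 ± 0.20 in wildtype (SD, n = 6 each) and did not pass. Rpt2, another ATPase, ran from 0.05 to 0.75 in the mutant and from 0.51 to 1.03 in wildtype, with a difference of -0.30 (limma adjusted p = 0.293).

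Rpt5, an ATPase of the base encoded on chromosome arm 3R, was the subunit gene with the largest difference. Its ratios in the mutant were 1.81, 1.64, 2.14, 2.52 and 1.17 on replicates 1, 2, 3, 4 and 6, with a deposited value of exactly 0 and hence no ratio on replicate 5. In wildtype they ran from 2.66 to 4.71 with a median of 3.02. Every mutant ratio was below every wildtype ratio, which was so for 1 of the 26 genes and for 3.48% of all rows in either direction. The fitted difference was -1.61 (SE 0.41, 95% interval -2.52 to -0.69), or 3.05-fold, and narrowly missed the threshold (limma unadjusted p = 0.00269, adjusted p = 0.0524). On the Cy3 arrays the difference was -2.04 and on the Cy5 arrays -1.07 (limma adjusted p = 0.193 and 0.298, both from the fit with an interaction of group and dye). It passed without mutant replicate 4 (-1.94, limma adjusted p = 0.0488) and without wildtype replicate 1 (-1.87, adjusted p = 0.0263), and the adjusted p of the alternatives, each a separate fit, ran between 0.0263 and 0.276, the highest from the Cy5 arrays fitted alone. The pros gene lies on the same arm and the wildtype animals carried a balancer of that chromosome. For the 11 subunit genes on chromosome 3, Rpt5 among them, an effect of the chromosome and one of the mutation cannot be told apart.

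Rpt3, an ATPase of the base encoded on the X chromosome, had the highest difference of all subunit genes. It ran from 0.62 to 0.93 with a median of 0.76 in the mutant, against -0.02 to 0.88 with a median of 0.25 in wildtype. Wildtype replicate 2, at 0.88, lay among the mutant values and the other wildtype arrays below them. The difference was 0.46 (SE 0.17, limma unadjusted p = 0.0204, adjusted p = 0.122). It was 0.24 on the Cy3 arrays and 0.68 on the Cy5 arrays (limma adjusted p = 0.675 and 0.0807). The wildtype ratios were 0.47, 0.88 and 0.35 on the Cy3 arrays and 0.08, 0.15 and -0.02 on the Cy5 arrays, which are those with the low neuroblast and high neuronal medians, and the part of these markers or of the dye in the difference was not tested. The call depended on the scaling. After median centring of the arrays the difference was 0.67 (limma adjusted p = 0.0366) and after quantile normalization 0.68 (adjusted p = 0.0479), and these settings moved the median difference of all rows to 0.08 and 0.09, against -0.13 as deposited.

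Rpn1, the base scaffold that receives ubiquitin shuttle factors, varied more between arrays than between groups. It ran from 0.71 to 2.29 with a median of 1.91 in the mutant, against -0.49 to 2.95 with a median of 2.06 in wildtype. Wildtype replicates 5 and 6, at -0.49 and 0.52, and mutant replicate 6, at 0.71, were the low arrays, all of them Cy5 arrays. The difference was 0.15 (SE 0.46, limma adjusted p = 0.875), and its interval, -0.87 to 1.16, does not leave out a 2-fold rise.

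**Figure D4:**
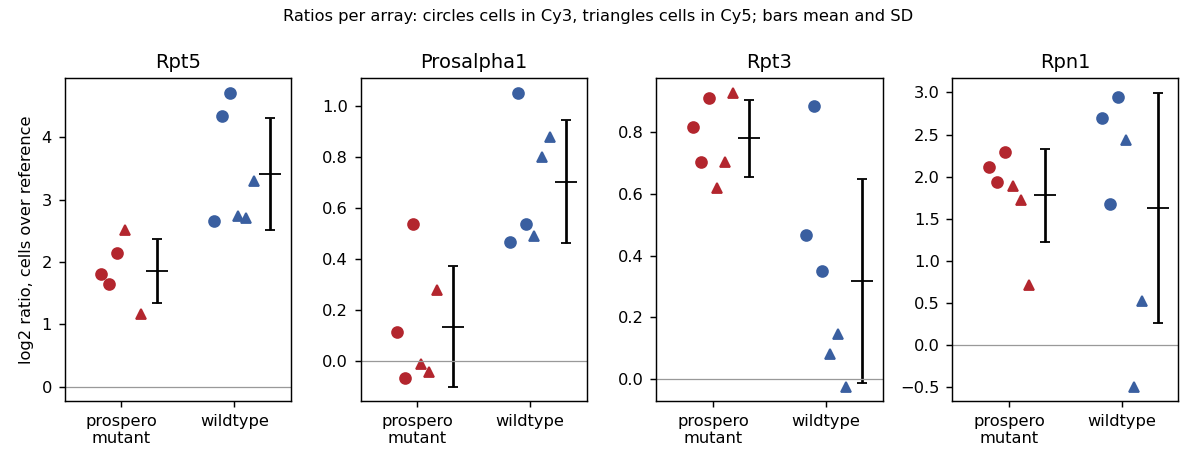
Log2 ratios of cells over reference (y axis, a scale of its own in each panel) of Rpt5, Prosalpha1, Rpt3 and Rpn1 on each array, prospero mutant left and wildtype right; circles are Cy3 arrays, triangles Cy5 arrays, and bars give the mean and SD. Rpt5 is the gene whose groups do not overlap, with mutant values up to 2.52 and wildtype values from 2.66.

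All 7 lid genes passed above the reference in both groups, against 35.3% of all rows in the mutant and 37.8% in wildtype. Their median fitted ratio was 1.32 in the mutant and 1.24 in wildtype. Their differences ran from -0.22 to 0.37, with a median of 0.09. Rpn11, the metalloprotease that cuts off the ubiquitin chain, had the lowest. It ran from -0.01 to 0.72 with a median of 0.51 in the mutant, against 0.44 to 0.90 with a median of 0.69 in wildtype. The difference was -0.22 (SE 0.18, limma adjusted p = 0.480). Rpn8, its partner in the lid, stood at 1.34 ± 0.42 in the mutant and 1.24 ± 0.54 in wildtype (SD, n = 6 each).

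Rpn6, a lid scaffold that in yeast bridges lid and core, had the highest difference of the lid. It ran from 0.57 to 0.96 with a median of 0.80 in the mutant, against -0.16 to 0.89 with a median of 0.55 in wildtype. Wildtype replicates 5 and 6 were the low ones, at -0.05 and -0.16. Their neuroblast list medians were -0.51 and -0.72 and their neuronal list medians 2.16 and 2.10. Wildtype replicate 4, with a neuroblast list median of -0.09 and the highest neuronal list median, 3.04, stood at 0.47. The part of these markers was not tested. The difference was 0.37 (SE 0.20, limma adjusted p = 0.266), at 0.04 on the Cy3 arrays and 0.69 on the Cy5 arrays (adjusted p = 0.956 and 0.0971). The scaffolds Rpn3, Rpn5 and Rpn7 stood at 1.60 ± 0.21, 0.81 ± 0.10 and 1.32 ± 0.15 in the mutant, and at 1.41 ± 0.31, 0.72 ± 0.24 and 1.42 ± 0.34 in wildtype (SD, n = 6 each). Rpn12, a further lid subunit with 6 mutant and 4 wildtype ratios, ran from 0.12 to 3.36 in the mutant and from 0.42 to 1.69 in wildtype. Its fitted difference of 0.05 departs from the difference of its means, 1.41 and 1.04, because both missing wildtype arrays were Cy3 arrays and dye is a term of the fit.

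Subunit genes varied less than most rows between arrays of the same group and dye, as did other large complexes. The median SD within group and dye was 0.26 for the 26 genes, against 0.52 over all rows and 0.47 over the 6361 rows with 12 ratios. It was 0.22 for the initiation factor eIF3, 0.28 for the COP9 signalosome, 0.32 for the CCT chaperonin and 0.40 for cytosolic ribosomal proteins, a list taken by symbol and described below. Of the 26, 23 lay below the median of all rows, which by construction holds for 50% of rows. The lowest were Prosbeta2 (0.16), Prosbeta7 (0.17) and Rpt3 (0.17). The value of Prosbeta7 is that of the average of its 2 probes. Over both dyes, one of these had an SD of 0.58 in the mutant and 0.34 in wildtype, the other of 0.15 and 0.14. Rpn1 (0.88), Rpt5 (0.75) and Rpn12 (0.70) lay above that median. Spot intensities were not used here, so the part of signal strength in this spread was not tested.

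**Figure D5:**
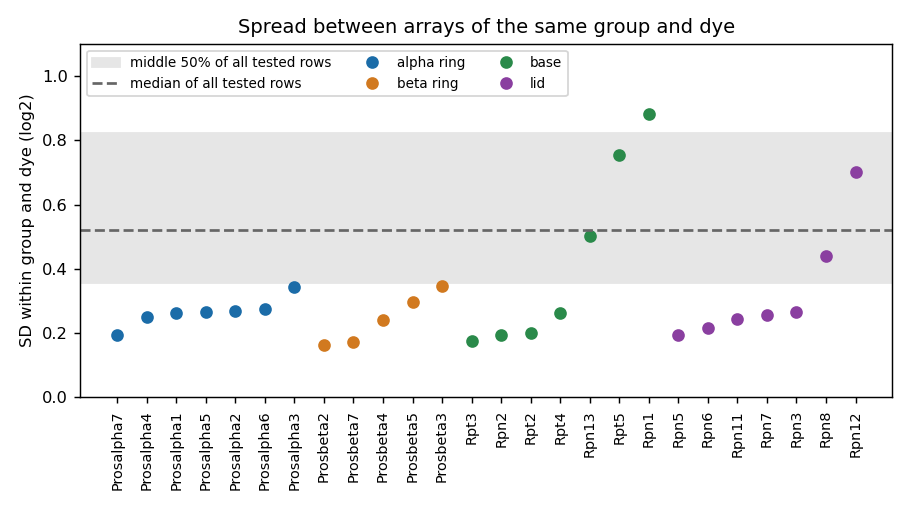
SD of the log2 ratio between arrays of the same group and dye (y axis) for each subunit gene, ordered within its subcomplex; the grey band holds the middle 50% of all tested rows and the dashed line is their median, 0.52. All but Rpn1, Rpt5 and Rpn12 lie below the line.

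The group difference was also compared between the dye orientations. Of the 26 genes, 0 passed a test of the difference between orientations in limma, with 0 at an unadjusted p under 0.05, where 0.416% of all rows passed and 15.7% lay under that unadjusted mark. The median difference of the 26 genes was -0.12 on the Cy3 arrays and 0.07 on the Cy5 arrays, against -0.15 and -0.06 over all rows. In either orientation 0 members passed, where 0.122% of all rows passed in Cy3 and 12.5% in Cy5. At an unadjusted p under 0.05 there were 1 in Cy3 (Rpt5), where 14.1% of all rows lay under that mark, and 3 in Cy5 (Prosalpha1, Rpn6 and Rpt3), where 26.6% did.

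The paralogs were mostly without a ratio. Such copies are in part known from the testis, where they replace the common subunit in the male germ line. Of the 15, 5 stood at exactly 0 on all 12 arrays (Prosalpha3T, Prosalpha4T1, Prosalpha4T2, Prosbeta2R1 and Prosbeta5R2) and 7 had a single ratio. These were Prosalpha6T (0.74), Prosbeta4R1 (1.21), Prosbeta5R1 (0.79) and Rpt4R (0.57) on a mutant array, and Prosbeta2R2 (0.81), Prosbeta4R2 (7.49) and Rpn12R (2.08) on a wildtype array. An exact 0 marks a place with no ratio and does not show that the gene is silent. Rpn12R had, beside its ratio on wildtype replicate 5, signal in 1 channel only on 6 further arrays, 3 mutant and 3 wildtype. Rpn13R had 5 ratios, 0.46 and 2.73 in the mutant and 1.87, 2.87 and 3.53 in wildtype. Just 2 paralogs could be tested, Prosalpha1R, given above, and Rpt3R. Rpt3R, with 4 mutant and 5 wildtype ratios, ran from 1.09 to 2.70 in the mutant and from 1.68 to 6.38 in wildtype. Its difference was -1.25 (SE 0.93, 95% interval -3.36 to 0.86, limma adjusted p = 0.437), and its interval leaves room for a change of more than 2-fold.

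Genes that act with the proteasome did not pass either. Of 13 tested regulators and shuttle factors 0 passed in either direction, where 4.95% of all rows did, and the median difference was 0.13. At an unadjusted p under 0.05 there was 1 member, where 25.9% of all rows lay under that mark. That member was rngo, a shuttle factor (0.46, SE 0.21, limma adjusted p = 0.184). Uch-L5, the deubiquitinase that binds Rpn13, ran from 1.51 to 2.48 in the mutant and from 0.76 to 2.33 in wildtype, with a difference of 0.56 (limma adjusted p = 0.193). The activator REG averaged 1.41 in the mutant and 1.08 in wildtype. The transcription factor cnc, whose vertebrate relatives induce proteasome genes, was far below the reference in both groups, at -3.80 ± 0.67 in the mutant and -3.24 ± 0.57 in wildtype (SD, n = 6 each), with a difference of -0.56 (limma adjusted p = 0.337).

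Among genes of tagging, 0 of 7 genes for ubiquitin, ubiquitin-like proteins and their activating enzymes passed, with a median difference of 0.00 and 1 at an unadjusted p under 0.05, Uba2 of the SUMO-activating enzyme (0.46, limma adjusted p = 0.130). Ubi-p5E, a polyubiquitin gene, lay below the reference at -1.39 ± 0.45 in the mutant and -0.84 ± 0.34 in wildtype (SD, n = 6 each; difference -0.55, limma adjusted p = 0.194). Of 9 genes of cullin ligases 0 passed (median -0.05, 1 at an unadjusted p under 0.05), with slmb, a substrate receptor, at 0.60 (limma adjusted p = 0.100). Of 6 genes of the anaphase-promoting complex 0 passed (median 0.40, 1 at an unadjusted p under 0.05). Its activator fzy ran from 2.04 to 2.51 in the mutant and from -0.81 to 2.70 in wildtype, with a difference of 1.11 (SE 0.44, limma adjusted p = 0.144). Beside the counts of these lists, 4.95% of all rows passed and 25.9% lay under the unadjusted mark.

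Other large complexes were set beside the proteasome. The lid shares its domain architecture with the COP9 signalosome and the initiation factor eIF3. The COP9 list had a median difference of -0.19 (0 of 6 passed, 0 at an unadjusted p under 0.05), eIF3 of 0.08 (0 of 13, 0), the CCT chaperonin of -0.12 (0 of 7, 1) and the cytosolic ribosomal proteins of -0.21 (0 of 36, 7). The ribosomal list was taken by symbol alone and holds RpL24-like, RpL7-like and RpLP0-like. It also holds copies such as RpS5b and RpS19b, whereas the paralogs of the proteasome were kept apart, so the lists were not built alike. Median fitted ratios over the reference were 0.81 in the mutant and 0.92 in wildtype for COP9, 1.37 and 1.40 for eIF3, 0.30 and 0.29 for CCT, and 0.15 and 0.49 for ribosomal proteins, beside 0.79 and 0.71 for the proteasome. Above the reference, 12 of 13 eIF3 genes passed in each group, and of 36 ribosomal protein genes 12 passed above and 8 below in the mutant, against 20 above and 4 below in wildtype. The shares of all rows were 35.3% above and 35.6% below in the mutant, and 37.8% above and 28.5% below in wildtype. Between the groups, 4.95% of all rows passed and 25.9% lay at an unadjusted p under 0.05. The differences between these lists were not tested.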

How the data were processed

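The deposited values are log2 ratios for 14569 probes on 12 arrays. How the authors corrected background and scaled these ratios is not given in the sources used here. Base 2 was read from the values: levels with signal in 1 channel lay at even steps on 7 of 11 arrays for base 2, on 2 for base e and on 0 for base 10. Exact zeros and values beyond 11 in size were set to missing. Probes were named through the platform annotation (12657 with 1 symbol, 96 with several, 1816 with none), updated through the RefSeq gene table (0 symbols changed, 41 of 41 members found), and averaged per gene. A probe annotated to both CG4101 and Prosbeta6 was not used, and Prosbeta1, Rpt1, Rpt6, Rpn9 and Rpn10 were not analysed here. Coordinates are left out, since no source used here names the array's genome build.

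Rows with a ratio on at least 4 of 6 arrays per group (8165) entered a linear model of limma (version 3.58.1, R 4.3.3) with moderated variances, in which group and the cells' dye were terms, followed by Benjamini-Hochberg adjustment over all rows (threshold 0.05). The group coefficients gave the ratios over the reference, whose own spread is left out. An interaction of group and dye gave values per orientation. The fit was tested on simulated data with independent noise and with shifts larger than any subunit difference found here. That test therefore does not show how well differences of the size seen here would be found. Members with full values were, per subcomplex, those with the highest and lowest difference, and the catalytic Prosbeta2 and Prosbeta5. These members also had an exact two-sided permutation test of the group means, unadjusted and without the dye term. Its p was 0.00433 for Rpt5, 0.00866 for Prosalpha1 and 0.0152 for Rpt3. For Rpn6, Rpn11, Prosbeta7, Prosalpha2 and Prosbeta3 the permutation p was 0.0714, 0.115, 0.130, 0.429 and 0.963. Of the other lists at most 3 genes with the smallest p were named. Rpn1, Rpt2, Rpn13, Rpt4, REG, cnc and the paralogs were named after their values were seen, as was the ribosomal list. The members and lists were chosen with earlier results of these data known. The number of arrays limits the precision.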

Additional observations from a re-analysis of the deposited data

Results flagged for a closer look

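Among 58 groups of arrays examined for a single stray value, 4 held one, and chance alone gives about 1 in 20. Rpn1 was low on mutant replicate 6, at 0.71, where the other mutant arrays ran from 1.73 to 2.29. Rpn2 was low on wildtype replicate 3, at -0.44, where the other wildtype arrays ran from -0.06 to 0.11. Rpt2 was high on wildtype replicate 4, at 1.03, where the others ran from 0.51 to 0.70. The paralog Rpt3R was high on wildtype replicate 1, at 6.38, where the other 4 wildtype arrays ran from 1.68 to 3.04.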

How the results depend on the processing

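Of the summary values (counts of members called and medians), 132 moved by less than the spread between arrays (counts by at most 1.5 times) and 9 moved further. The median difference of the members, -0.03, was above 0 under 5 of 24 alternatives, 3 of them within that spread. Among the alternatives, the fit without the wildtype Cy5 arrays repeats the differences of the Cy3 arrays alone. Of the values of single named members 235 kept their call, 4 passed newly (Rpt3 and Rpt5, given in the report) and 0 reversed. Differences short of the threshold changed sign under 6 alternatives for Prosbeta2, 9 for Prosbeta3, 4 for Prosbeta5 and 1 for Prosbeta7. After median centring the median difference of the members was 0.18 with 1 called, and the wildtype median over the reference 0.46. After quantile normalization the median difference was 0.16 with 1 called, and the mutant median over the reference 0.91. On the Cy5 arrays alone, 13 members passed above the reference in the mutant. The share of all rows is not given for that setting, so the lower count cannot be told from a loss over all rows. Without single arrays, 0 to 1 members were called between groups with medians from -0.07 to 0.03, and over the reference 18 to 21 passed in the mutant (medians 0.76 to 0.85) and 18 to 22 in wildtype (0.69 to 0.77). The single call without mutant replicate 4 or without wildtype replicate 1 was Rpt5. With the replicate number as a block, 0 members passed, their median difference was -0.04 and 163 rows passed in all. Deviations of same-numbered arrays from group and dye means correlated at 0.062 to 0.262 over 6 numbers, and 12 of 12 arrays correlated best with their own number among the other group's arrays of that dye. This is a hint of pairing from the data, and no label ties the numbers to a shared source. Over all rows, 404 passed, against 2 on the Cy3 arrays alone, 117 without mutant replicate 4 and 644 after median centring. Signal over background is unknown here and limits what a ratio near 0 can show.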
